A study of Homo sapiens with 4 samples.

Results

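The 2972 regions described here carried a peak of BAF45D in both libraries of spinal cord neural stem cells (NSC) and no peak in either library of human embryonic stem cells (ESC), and lay at an end of a protein-coding gene. They were found by joining all peaks of the 4 libraries on chromosomes 1 to 22 and X that overlapped by at least 1 bp, which gave 44534 regions. A region was kept when it held a peak of NSC1 and of NSC2, held none of ESC1 or ESC2, and overlapped the 1 kb on either side of the start or the end of a protein-coding gene in RefSeq (GRCh38). The kept regions made up 6.67% of all regions and 21.8% of the 13646 regions with this NSC-only pattern. Since the presence and absence of peaks chose them, their NSC-only pattern and the strength of their NSC peaks are given as description, with no test.

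The NSC were derived from H9, an established human ESC line, and the ESC were H9 cells kept in mTeSR1 medium on Matrigel. For induction, H9 cells were passaged with the ROCK inhibitor Y-27632 and given N2B27 medium with LDN-193189, SB431542, CHIR-99021, FGF2, FGF8 and DAPT. After 10 days the induced cells were moved to maintenance medium with SB-431542, CHIR-99021 and a Hedgehog agonist, and later to stem cell medium with FGF2 and EGF. The labels do not say at which passage the NSC were taken, nor whether the 2 libraries of a cell type came from separate cultures, so the spread between libraries may be technical. All cells trace to 1 line, and BAF45D binding was mapped by CUT&Tag on 100000 cells per assay, in which an antibody brings a transposase to the DNA around its target.

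BAF45D, encoded by DPF2, is a PHD-finger subunit of the BAF (SWI/SNF) complex, which uses ATP to slide or evict nucleosomes. BAF complexes change their subunits as pluripotent cells become neural progenitors and then neurons, and they act at enhancers and at promoters. Most human promoters lie in CpG islands, stretches of DNA that are rich in G and C and have kept their CG dinucleotides, and many of them carry GC boxes, which SP1-family factors bind, or CCAAT boxes, which the factor NF-Y binds.

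To show the DNA at gene starts that these regions cover, promoters of RefSeq (GRCh38.p14, 250 bases before to 50 after the gene start) are printed. They are those of the strongest NSC-only regions that cover a gene start, on the strand of the gene. Capitals mark the CCAAT box, written CCAAT or, on the opposite strand, ATTGG. The sequences are those of ATG10 (chr5:81971773-81972072, plus strand), FARP2 (chr2:241356035-241356334, plus strand), FIBP (chr11:65888422-65888721, minus strand), TNFRSF19 (chr13:23570162-23570461, plus strand), EIF2S3 (chrX:24054706-24055005, plus strand), NR2F1 (chr5:93582972-93583271, plus strand), CARD19 (chr9:93095967-93096266, plus strand) and FLRT3 (chr20:14337563-14337862, minus strand).
ATG10: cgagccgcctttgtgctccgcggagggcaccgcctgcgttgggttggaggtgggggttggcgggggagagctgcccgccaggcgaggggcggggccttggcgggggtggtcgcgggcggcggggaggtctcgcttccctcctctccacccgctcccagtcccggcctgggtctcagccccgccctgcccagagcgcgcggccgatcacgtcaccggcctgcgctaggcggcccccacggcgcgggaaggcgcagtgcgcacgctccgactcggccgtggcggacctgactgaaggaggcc
FARP2: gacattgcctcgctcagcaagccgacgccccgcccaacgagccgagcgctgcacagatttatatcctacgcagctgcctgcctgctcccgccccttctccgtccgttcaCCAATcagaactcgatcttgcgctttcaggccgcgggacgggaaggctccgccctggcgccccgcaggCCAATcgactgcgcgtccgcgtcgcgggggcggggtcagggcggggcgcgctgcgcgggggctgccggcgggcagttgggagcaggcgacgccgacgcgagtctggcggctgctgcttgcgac
FIBP: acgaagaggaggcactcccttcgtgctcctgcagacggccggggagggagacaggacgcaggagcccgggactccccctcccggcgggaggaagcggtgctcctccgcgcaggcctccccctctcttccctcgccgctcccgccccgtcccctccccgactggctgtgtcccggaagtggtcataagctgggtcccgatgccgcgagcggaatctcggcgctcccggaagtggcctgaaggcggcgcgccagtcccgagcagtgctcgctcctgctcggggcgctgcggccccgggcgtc
TNFRSF19: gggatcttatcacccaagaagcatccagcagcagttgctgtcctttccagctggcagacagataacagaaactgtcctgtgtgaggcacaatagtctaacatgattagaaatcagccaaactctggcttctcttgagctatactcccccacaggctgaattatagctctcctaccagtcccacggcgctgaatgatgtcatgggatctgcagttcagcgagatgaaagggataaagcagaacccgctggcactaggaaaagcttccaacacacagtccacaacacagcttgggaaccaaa
EIF2S3: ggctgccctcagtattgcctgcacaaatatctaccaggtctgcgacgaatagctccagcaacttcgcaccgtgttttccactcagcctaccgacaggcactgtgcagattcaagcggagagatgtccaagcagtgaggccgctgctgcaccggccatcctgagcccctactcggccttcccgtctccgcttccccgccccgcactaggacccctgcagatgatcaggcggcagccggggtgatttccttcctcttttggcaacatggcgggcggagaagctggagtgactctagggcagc
NR2F1: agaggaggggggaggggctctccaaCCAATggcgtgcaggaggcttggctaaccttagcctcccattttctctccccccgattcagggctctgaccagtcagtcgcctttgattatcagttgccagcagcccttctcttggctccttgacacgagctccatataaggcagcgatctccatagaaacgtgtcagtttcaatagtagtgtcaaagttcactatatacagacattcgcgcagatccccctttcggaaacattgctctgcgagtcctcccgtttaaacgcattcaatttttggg
CARD19: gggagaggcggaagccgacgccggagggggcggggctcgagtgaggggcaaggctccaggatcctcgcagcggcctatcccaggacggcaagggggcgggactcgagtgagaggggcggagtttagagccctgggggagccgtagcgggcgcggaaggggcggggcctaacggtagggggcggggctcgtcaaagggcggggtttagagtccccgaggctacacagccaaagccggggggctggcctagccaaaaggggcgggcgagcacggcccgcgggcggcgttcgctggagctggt
FLRT3: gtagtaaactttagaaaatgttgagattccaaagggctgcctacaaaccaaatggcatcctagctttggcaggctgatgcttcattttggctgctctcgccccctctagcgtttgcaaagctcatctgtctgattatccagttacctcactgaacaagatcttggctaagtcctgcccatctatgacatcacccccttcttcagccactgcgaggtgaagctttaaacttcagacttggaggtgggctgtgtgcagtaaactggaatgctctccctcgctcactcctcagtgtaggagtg
The set held GC-rich and GC-poor promoters: GC content was 76.7% at ATG10, 73.3% at FIBP and 72.7% at CARD19, and 49.0% at TNFRSF19 and 48.7% at FLRT3. The CARD19 promoter held 8 GC boxes (GGGCGG on either strand) and no CCAAT box, while the FARP2 promoter held 5 GC boxes and 2 CCAAT boxes. NR2F1 had 1 CCAAT box and no GC box, and the promoters of ATG10, FIBP, TNFRSF19, EIF2S3, CARD19 and FLRT3 had no CCAAT box. The printed bases do not always hold the summit, the point of highest pileup. At EIF2S3 it lay at -307 bp from the start in NSC1 and -289 bp in NSC2. It lay at -366 bp in NSC2 at NR2F1 and at 56 bp in NSC1 at FLRT3, also outside them.

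For comparison, promoters under the strongest gene-end regions with a peak in all 4 libraries are those of NDUFA11 (chr19:5903741-5904040, minus strand), VMAC (chr19:5904622-5904921, plus strand), which share 1 region, and SRGAP2C (chr1:121184725-121185024, plus strand), a gene with near-identical copies in the human genome, so that its peak is uncertain.
NDUFA11: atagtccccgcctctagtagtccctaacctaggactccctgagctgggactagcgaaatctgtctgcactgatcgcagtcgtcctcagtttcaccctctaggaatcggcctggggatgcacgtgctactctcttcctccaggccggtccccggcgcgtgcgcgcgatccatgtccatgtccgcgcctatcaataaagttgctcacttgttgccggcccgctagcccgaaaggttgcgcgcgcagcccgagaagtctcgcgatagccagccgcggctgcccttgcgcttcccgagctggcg
VMAC: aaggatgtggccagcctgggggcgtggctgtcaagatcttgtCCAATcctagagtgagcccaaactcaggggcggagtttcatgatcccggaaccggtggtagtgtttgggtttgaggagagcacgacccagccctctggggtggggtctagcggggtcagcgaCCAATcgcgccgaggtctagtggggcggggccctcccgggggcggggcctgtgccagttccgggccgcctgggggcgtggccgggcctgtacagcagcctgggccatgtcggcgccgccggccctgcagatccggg
SRGAP2C: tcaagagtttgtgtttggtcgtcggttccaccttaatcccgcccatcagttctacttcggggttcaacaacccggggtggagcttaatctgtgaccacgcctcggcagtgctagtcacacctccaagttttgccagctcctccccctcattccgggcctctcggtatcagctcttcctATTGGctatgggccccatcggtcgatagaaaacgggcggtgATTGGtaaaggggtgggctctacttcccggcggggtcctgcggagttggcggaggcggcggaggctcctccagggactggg
VMAC and SRGAP2C each held 2 CCAAT boxes and NDUFA11 held none. The NSC1 and NSC2 summits lay upstream of the printed bases at each of these genes. They were at -672 and -677 bp at NDUFA11, -410 and -405 bp at VMAC, and -352 and -334 bp at SRGAP2C. These promoters were chosen by peak strength, and the shares over all promoters are given below.

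Both NSC libraries were shallower than both ESC libraries: 5566407 and 5377831 tags in NSC1 and NSC2, against 20734829 and 18953543 in ESC1 and ESC2. The lists nevertheless held 29783 and 24669 peaks in NSC1 and NSC2, against 4204 and 12533 in ESC1 and ESC2. The lowest pileup that passed the authors' threshold was 4 in each NSC list, against 8 in ESC1 and 7 in ESC2, so a site could enter an NSC list with fewer reads. How far depth and background set the NSC-only pattern cannot be told apart from cell type, since both differ between the groups in the same direction. With 2 libraries against 2, the smallest 2-sided p of an exact permutation test is 0.333, and no comparison of cell types was tested.

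The markers set for this cell type were met in part, beside a background of 17.1% of all protein-coding genes. An NSC-only gene-end region lay at 3 of 8 neural stem cell markers (SOX1, NES and VIM), at 4 of 8 HOX markers of spinal cord identity (HOXC4, HOXC5, HOXC6 and HOXB5, which rest on 2 regions) and at 2 of 7 ventral domain markers (NKX6-1 and OLIG2). None of 7 pluripotency, 5 neural crest or 6 mesoderm and endoderm markers had one, whereas 2 of 6 neuron markers (MAP2 and SNAP25) and 1 of 6 fibroblast markers (LUM) did. SNAP25 also had another region with an ESC peak at its ends. The longer lists described below differ from these markers for neural crest, where 5 of 16 genes had a region, and for pluripotency, where 2 of 31 did. A peak at a gene is not a measure of its expression, so these counts describe binding only.

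In the text that follows, the values of a peak are the authors' −log10 q, a measure of how far the pileup stood above the local background of the same library, and its percentile within its own list. The NSC-only gene-end regions had a median −log10 q of 6.64 in NSC1 and 5.62 in NSC2, and ranged up to 51.2 and 56.3. The 2833 gene-end regions that held a peak of both NSC libraries and of at least 1 ESC library, called shared regions below, had medians of 13.1 in NSC1 and 10.9 in NSC2. The 905 of these found in all 4 libraries had 20.7 and 17.3. The median NSC-only gene-end region thus stood at percentile 61.1 of the NSC1 list and 54.5 of the NSC2 list, the shared regions at 85.5 and 81.9.

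NSC-only regions away from gene ends, 10674 in number, had medians of 6.90 in NSC1 and 5.83 in NSC2, close to those at gene ends. Their median width was 465 bp, against 496 bp for the NSC-only regions at gene ends and 694 bp for the shared regions. Of the 5805 regions at gene ends that both NSC libraries marked, 51.2% had no ESC peak. That share was 77.7% in the weakest quintile of these regions by mean NSC percentile, 70.9%, 55% and 38.2% in the next ones and 14.2% in the strongest quintile. The plot of peak strength shows the same pattern by class. Hence a region with a weaker NSC peak more often had no ESC peak. Summit distance, GC content and CCAAT share are also given by strength below, and the other comparisons of classes were not split by it.

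**Figure D1:**
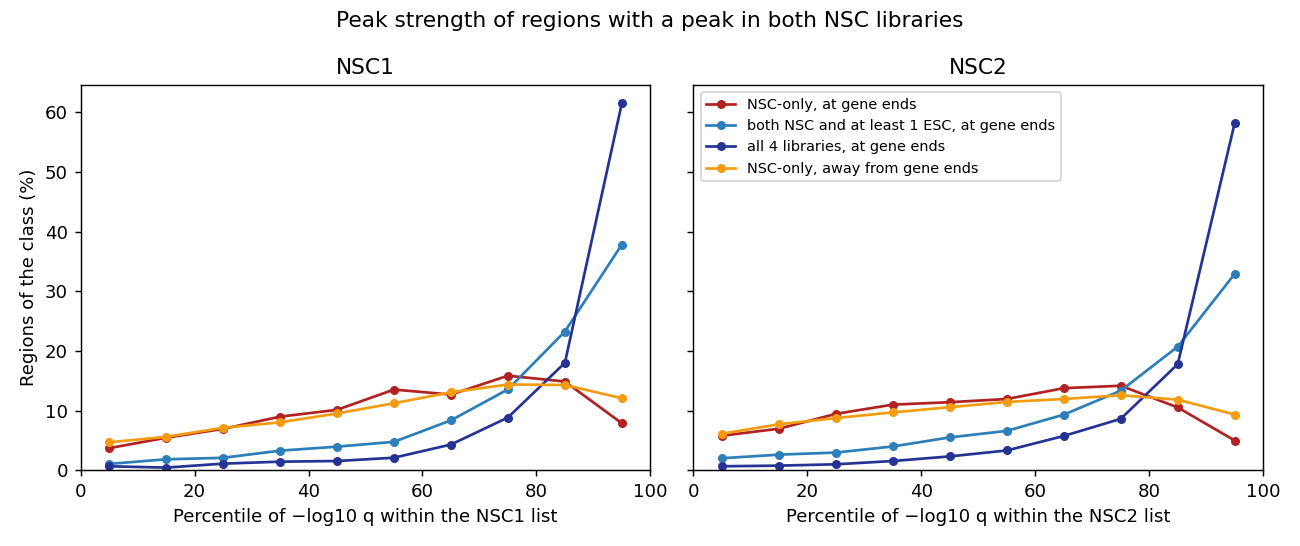
Share of regions of each class (%, y axis) by percentile of their −log10 q within the NSC1 list (left) and the NSC2 list (right), in steps of 10 percentiles. NSC-only regions at gene ends and away from them follow each other over most of the range, while shared regions rise toward the top, with all-4 regions the most so.

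NSC1 and NSC2 summits, the points of highest pileup, lay a median of 47 bp apart in these regions. In 2112 of the 2972 regions (71.1%) the summits lay within 100 bp of each other. The rule kept only regions in which peaks of both libraries were joined by overlap, so close summits were partly built in. Over the regions the −log10 q of the libraries correlated with a Pearson r of 0.667 and a Spearman rho of 0.526; the regions were chosen to pass in both, so this is a description. A total of 89 regions stood in the top decile of both lists and 11 in the lowest decile of both. In 1382 regions (46.5%) the −log10 q was 5 or more in both libraries.

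The strongest region by mean percentile lay 735 bp from the 3′ end of FIGN, which encodes fidgetin, a microtubule-severing ATPase (chr2:163601006-163601876). Its −log10 q was 51.2 in NSC1 and 56.3 in NSC2. The next lay 797 bp from the 3′ end of PARG, the enzyme that removes poly(ADP-ribose), with 41.9 and 33.6 (chr10:49819076-49820130); PARG has pseudogene copies, so reads there may be uncertain.

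Regions over gene starts followed. ATG10, an enzyme of autophagosome formation, had −log10 q values of 33.95 in NSC1 and 30.4 in NSC2. FARP2 had 34.8 and 29.7. FIBP, which binds FGF1 inside cells, had 30.4 and 31.9, and TNFRSF19, a receptor of the tumour necrosis factor family, had 29.7 and 28.8. In each of these both NSC values stood above percentile 97 of their list.

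EIF2S3, a subunit of the translation initiation factor eIF2, had 24.6 in NSC1 and 35.1 in NSC2, the largest excess of NSC2 over NSC1 among the 12. NR2F1, a nuclear receptor of the COUP-TF family, had 26.2 and 28.9. PHF13, a reader of methylated histone H3, had 32.4 and 25.1 with a region 4 bp outside the gene, and OXTR, the oxytocin receptor, had 34.4 and 23.6 with a region 214 bp outside it. CARD19 had 28.1 and 25.7, and FLRT3, an adhesion molecule in axon guidance, had 28.1 and 24.8. None of these 12 regions had a peak in ESC1 or ESC2, as the rule required.

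None of the 5 widest regions was among the 12 strongest. The 5 widest lay at S1PR1 (1624 bp), DENND4C (1561 bp), NFE2L2 (1496 bp), AKAP8 with AKAP8L (1476 bp) and SKIL (1433 bp). S1PR1, a receptor for sphingosine 1-phosphate, had 7.16 in NSC1 and 3.84 in NSC2, DENND4C had 8.72 and 22.3, and SKIL, a repressor of TGF-beta signalling, had 3.46 and 13.4. At SKIL the libraries thus gave different ranks, at percentiles 25.02 in NSC1 and 87.2 in NSC2.

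Position within the gene window was not used by the rule beyond its limit of 1 kb. A total of 2160 regions (72.7%) covered a gene end itself, 581 lay 1 to 500 bp from one and 231 lay farther off, up to 1000 bp. At the limit, the regions at STON1 and RIIAD1 lay 1000 bp from the gene and were kept, and those at EFS (1005 bp) and FIGNL2 (1008 bp) were not. STON1 had 6.94 in NSC1 and 5.22 in NSC2, RIIAD1 had 2.95 and 6.68, EFS had 5.08 and 5.24, and FIGNL2 had 16.4 and 2.74.

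The regions lay at gene starts far more than at gene 3′ ends. Strand was known for a gene at 2507 of them, and 2378 of these (94.9%, 95% Wilson interval 93.9 to 95.7) touched the window of a start. The share was 97.8% (97.2 to 98.3) in shared regions and 98.6% (97.5 to 99.2) in all-4 regions. Gene-end regions of NSC1 alone had 93.8% and those of NSC2 alone 95.01%. Intervals here and below cover counting error only, and regions of 1 library are not independent replicates.

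Counting genes of known strand, 129 regions touched only a 3′ end. Of these, 4 lay within 1 kb of the start of another gene, coding or not, that had a promoter sequence. Starts of genes without a promoter sequence were not checked. The strongest of the 129 regions were at FIGN and PARG, given above, and at OXTR, LOC124909494 and UGT2A3. UGT2A3, a glucuronosyltransferase, had −log10 q values of 22.8 in NSC1 and 27.7 in NSC2, and LOC124909494 had 37.1 and 20.4. Among shared regions, 55 touched only a 3′ end.

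At 331 of the 2378 regions at starts (13.9%) starts of genes on both strands fell in reach, as in a divergent pair of promoters. The share was 18.98% (467 of 2460) in shared regions and 21.8% (170 of 781) in all-4 regions. A single gene was touched by 2401 regions, 2 genes by 534 and 3 or more by 37. The region touching the most genes, 23, lay between the shared 3′ end of the protocadherin gamma genes and DIAPH1, with 11.9 in NSC1 and 9.15 in NSC2.

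Seen from the genes, 3424 of 19970 protein-coding genes (17.1%) had an NSC-only region at an end, 3513 (17.6%) had a shared region and 1161 (5.81%) a region of all 4 libraries. Of the 3424, 3254 had 1 such region, 164 had 2 and 6 had 3 (THBS3, FIGN, TMEM43, FEM1B, MNT and NDUFA7). Another gene-end region with an ESC peak lay at 379 of the genes (11.1%), and at 3045 no gene-end region held an ESC peak. At these 379 genes the region with an ESC peak lay at the same end of the gene as the NSC-only region or at the other end.

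The distance to the nearest ESC peak also differed by place. It was a median of 50.3 kb for NSC-only regions at gene ends and 89.5 kb for those elsewhere. An ESC peak lay within 1 kb of 235 gene-end regions (7.91%), against 149 of the others (1.40%). Among shared regions the ESC peak came mostly from the library with the longer list: 1918 had an ESC2 peak and no ESC1 peak, and 10 had an ESC1 peak and no ESC2 peak. Of the 2 ESC libraries, ESC2 thus set most of the NSC-only class, which held 2981 regions without ESC1 and 4892 without ESC2. It held 4178 without NSC1 and 5155 without NSC2.

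The summits sat just upstream of the gene start. For the 1986 promoters whose start lay in an NSC-only region, the median summit was at -60 bp in NSC1 and -64 bp in NSC2. In the 2540 promoters of shared regions it was at -94 and -96 bp, and in the 845 promoters of all-4 regions at -118 and -127 bp. Taken without sign, the median distance was 85 bp in NSC1 and 89 bp in NSC2 for NSC-only regions, and 120 bp in both libraries for shared ones.

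A summit downstream of the start was found at 25.4% of NSC-only promoters in NSC1 and 24.2% in NSC2, against 17.3% and 16.9% of shared ones. In the all-4 regions the ESC summits lay at -148 bp in ESC1 and -152 bp in ESC2. Distance moved with strength. From the weakest quintile to the strongest, the unsigned median in NSC1 was 74.5, 81, 88, 98.5 and 115 bp for NSC-only promoters, against 98.5, 101, 89, 118 and 156 bp for shared ones. In NSC2 it was 81.5, 87, 89, 105 and 119 bp, against 90, 90, 99, 119 and 160 bp. NSC-only summits were the nearer ones in every quintile of both libraries, by 1 bp in the middle quintile of NSC1. Only promoters whose start lay in the region were used, so region width limits this distance and the contrast is partly built in. Median width was 496 bp for NSC-only, 694 bp for shared and 803 bp for all-4 regions. Distances were not split by width. The plot of summits around starts shows the profiles of each class.

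**Figure D2:**
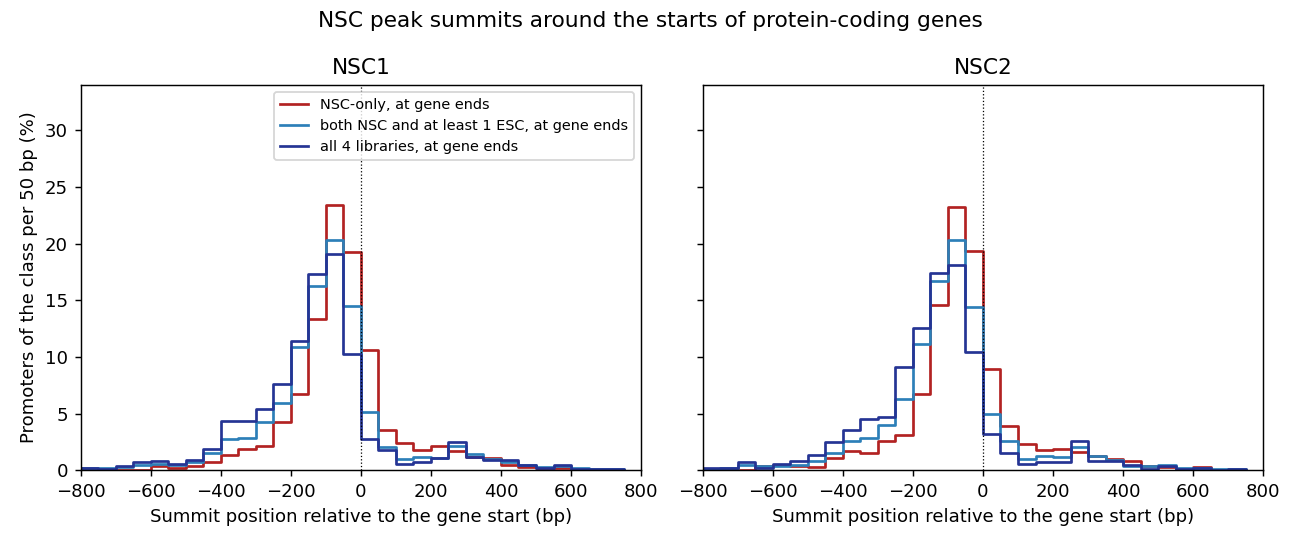
Position of the peak summit relative to the gene start (bp, x axis, negative is upstream) as the share of promoters of each class per 50 bp (%, y axis), in NSC1 (left) and NSC2 (right). All classes have their highest bin just upstream of the start, and the NSC-only class has more of its summits at and just after the start than the other classes.

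The sequence of the promoters, which the rule did not use, differed between the classes. Promoters in NSC-only regions had a median GC content of 69.0% (quartiles 63.7 to 73.3), against 63.0% (58.7 to 67.3) in shared regions and 61.7% (57.7 to 65.3) in all-4 regions. The median over all 15811 promoters with a sequence was 62.7%, and over the 8958 promoters with no peak in any library it was 59.3%. The ratio of observed to expected CpG was 0.901 in NSC-only regions, 0.851 in shared regions and 0.833 in all-4 regions, with 0.527 at promoters without a peak. A ratio above 0.6, one criterion of a CpG island, was met by 95.2% of promoters in NSC-only regions, 92.8% in shared regions and 46.2% of those without a peak. In base composition, NSC-only promoters were thus the most GC-rich class compared, and the classes overlapped widely.

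The GC content of NSC-only promoters was above that of shared promoters in each quintile of peak strength, a split made after the pooled values were seen. It was 68.0% against 60.7% in the weakest quintile, 69.3% against 62.0% in the middle one and 71.7% against 63.7% in the strongest. GC content also moved with the library: promoters with a peak had a median of 65.3% in NSC1 and in NSC2, against 61.3% in ESC1 and 62.3% in ESC2. Promoters with a peak in NSC1 alone had 66.0% and in NSC2 alone 67%. The 130 promoters with an ESC peak and no NSC peak had 57.0%. Whether the libraries recovered GC-rich DNA to different extents was not tested.

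**Figure D3:**
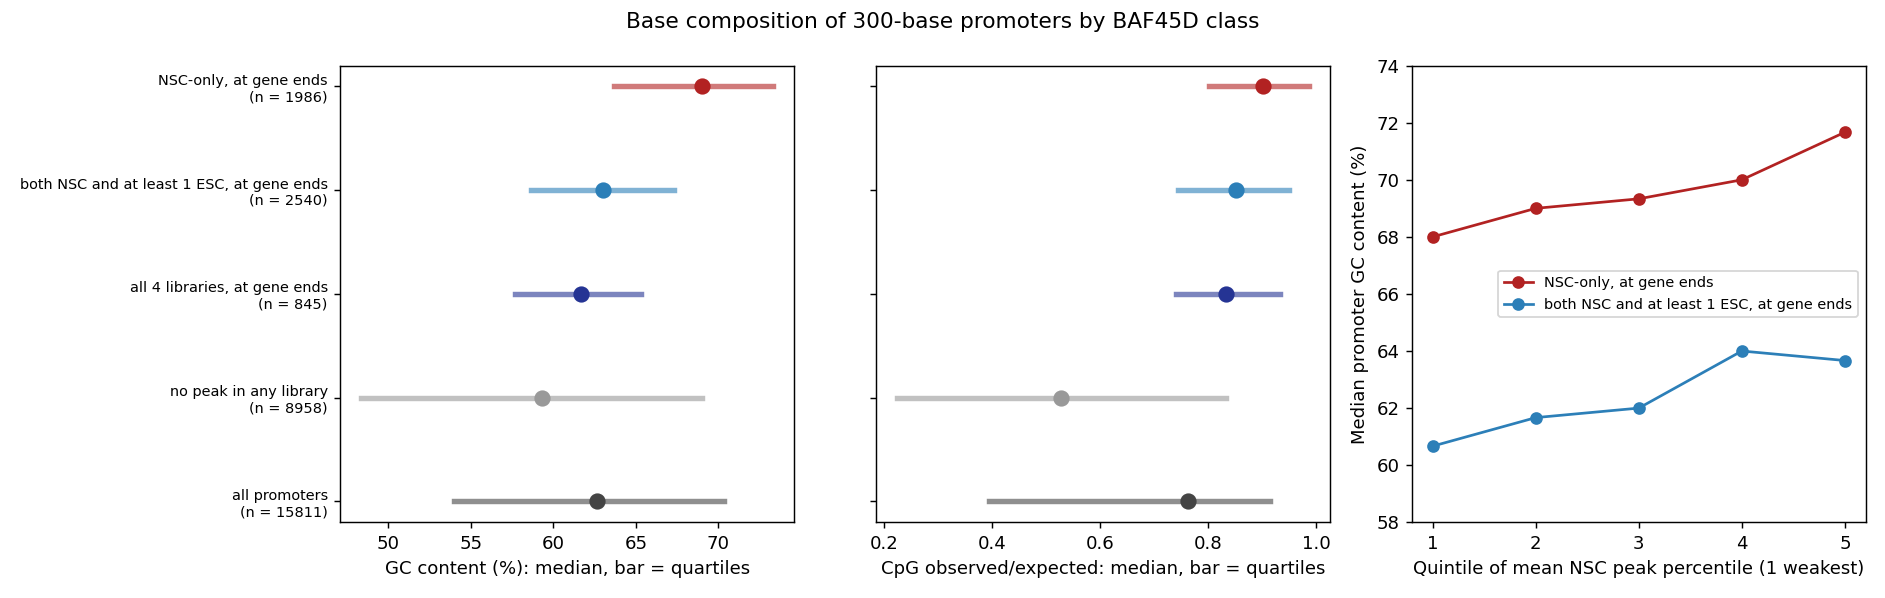
GC content (%, left) and CpG observed over expected (ratio, middle) of 300-base promoters by class, with the median as a point and the quartiles as a bar, and median GC content by quintile of peak strength (right). NSC-only promoters have the highest medians of the classes, 69.0% GC and a CpG ratio of 0.901, and lie above the shared class in every quintile; axes do not start at 0.

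Motifs were searched as exact letters on both strands of the same 300 bases. The GC box (GGGCGG) was present in 80.4% of NSC-only promoters, 73.1% of shared promoters, 72.9% of all-4 promoters and 58.5% of all promoters. The CCAAT box went the other way: it was present in 37.5% of NSC-only promoters (95% Wilson interval 35.4 to 39.6), 52.3% of shared ones (50.3 to 54.2) and 58.2% of all-4 ones (54.9 to 61.5). All promoters had it in 36.3% and promoters without a peak in 31.5%. The NSC-only promoters therefore held CCAAT about as often as promoters at large, and the classes with an ESC peak held it more often.

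GC-rich DNA holds fewer CCAAT matches by composition, so the share was also taken within bands of GC content, again a split made after the pooled values were seen. At 60 to 65% GC the box was in 37.0% of NSC-only promoters (127 of 343) and 54.3% of shared ones (409 of 753). At 65 to 70% it was in 39.1% and 50.2%, and at 70 to 75% in 35.8% and 40.3%. At 55 to 60% it was in 51.0% and 59.8%, below 55% in 42.2% and 53.0%, and above 75% in 29.9% and 33.8%. The share was lower in NSC-only promoters in each of these 6 bands, but the 95% intervals of the classes were apart only at 60 to 65% and 65 to 70%. By strength, the share was 31.0% against 46.6% in the weakest quintile and 37.1% against 53.7% in the strongest.

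Other motifs differed less. The core of the cAMP response element (TGACGT) was in 12.9% of NSC-only promoters, 16.5% of shared ones, 19.4% of all-4 ones and 9.66% of all. The YY1 letters AAGATGG were in 7.40%, 10.6%, 11.01% and 6.40% of the same sets. The ETS letters CCGGAAG were in 24.0% of NSC-only promoters and 23.6% of shared ones, against 14.2% of all. A TATA box (TATAAA) was in 4.63% of NSC-only promoters and 3.94% of shared ones, against 9.64% of all, and the AP-1 site (TGANTCA) in 3.02% and 3.70%, against 5.76%. The NRF1 letters TGCGCA were in 17.2% of NSC-only promoters and 17.99% of shared ones, against 10.8% of all.

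Motifs of factors of neural development were no more frequent in NSC-only promoters than over all promoters. The SOX letters ACAAAG were in 8.16% of NSC-only promoters, 9.84% of shared ones and 12.8% of all. The MEIS letters TGACAG were in 10.9%, 13.8% and 14.7% of the same sets, and the E-box CAGCTG, which neurogenic bHLH factors can bind, in 16.2%, 14.6% and 17.7%. The octamer letters TGCAAAT, bound by POU factors, were in 2.32%, 2.99% and 3.44%, and the TEAD letters GGAATG in 9.01%, 10.8% and 11.7%. The other E-box, CACGTG, was in 11.2%, 10.3% and 8.87%. These letters are mostly less GC-rich than the NSC-only promoters, and a match does not show that a factor binds.

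Among genes of neural progenitors, 18 of 43 (41.9%) had an NSC-only region, against 17.1% of all genes, and 8 (18.6%) had a shared region. NR2F1 is given above. ID1, an inhibitor of neurogenic bHLH factors, had −log10 q values of 38.4 in NSC1 and 19.8 in NSC2, and another region with an ESC peak at its ends. POU3F2, a POU factor of neural progenitors and neurons, had 27.2 and 21.96 (chr6:98833802-98834720). ZIC1, a zinc finger factor of the dorsal neural tube, had 32.8 and 16.8 (chr3:147408619-147409763), and ZIC2 had 18.1 and 17.5. SOX1 (5.00 and 2.93) and NES (2.49 and 3.01), widely used NSC markers, stood at the weak end. This list was known from earlier results of these data to have many NSC-only genes, so the count is not independent evidence.

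The HOX genes, which set position along the body axis, had an NSC-only region at 9 of 39 (23.1%) and a shared one at 0. The 9 genes shared 6 regions. HOXB3 and HOXB5 touched 1 region with 16.5 in NSC1 and 16.3 in NSC2, and HOXA2 had 9.60 and 5.78. HOXC4, HOXC5 and HOXC6 touched 1 region with 8.82 and 3.68, and HOXD8 had 5.93 and 4.75. With windows of 500 bp in place of 1 kb, 3 HOX genes kept a region, so most lay in the outer part of the window. Among 45 factors of the spinal cord's dorsoventral domains, NKX6-1 (8.66 and 10.0), OLIG2 (4.45 and 7.36) and IRX5 (5.16 and 4.65) had one (6.67%), below the background of 17.1%.

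Signalling pathways used in the induction were compared in the order ligand, receptor and effector. In the TGF-beta and BMP pathway, whose receptors LDN-193189 and SB431542 inhibit, 11 of 43 genes (25.6%) had an NSC-only region and 2 (4.65%) a shared one. The ligand genes TGFB3 (8.21 in NSC1 and 5.08 in NSC2) and TGFB2 (6.56 and 1.34) had one. So did the receptor genes BMPR1A (9.96 and 12.6), ACVR1 (3.95 and 12.2) and ACVR2A (8.04 and 4.90). Of the SMAD proteins, which carry the signal to the nucleus, SMAD4 had 8.67 and 12.3, and SMAD2, SMAD5 and the inhibitory SMAD6 had regions too. No gene of these 11 had an ESC peak at an end. The rule bars an ESC peak from the region itself, and 3045 of all 3424 genes with an NSC-only region had none at an end. The count was 4 when a −log10 q of at least 5 was asked of every list, 17 without NSC1 and 16 without NSC2. With every list cut to the length of the shortest it was 1.

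In the WNT pathway, which CHIR-99021 activates through GSK3, 18 of 64 genes (28.1%) had an NSC-only region and 8 (12.5%) a shared one. They were mostly receptors and intracellular parts. The Frizzled receptor genes FZD5 (10.9 and 7.82) and FZD4 (8.94 and 6.53) and the co-receptor gene LRP6 (6.52 and 9.51) had one, as did FZD3, FZD7 and FZD8. ZNRF3, a ligase that removes Frizzled from the membrane, had 13.4 and 10.9, and DVL3, which relays the signal, had 11.7 and 12.4. In the destruction complex AXIN1 had 17.8 and 7.74, and CTNNB1, the gene of beta-catenin, had 6.46 and 6.90. TCF7L1, a repressive partner of beta-catenin on DNA, had 13.5 and 10.0. The WNT count was 12 at a −log10 q of at least 5 in every list. It was 0 with every list cut to the length of the shortest, where the count over all genes fell from 3424 to 462.

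Of 37 Notch genes, 11 (29.7%) had an NSC-only region and 9 (24.3%) a shared one. They covered the gamma-secretase subunit gene PSENEN (19.05 and 12.1), the receptor-cleaving protease gene ADAM17 (11.5 and 12.5), the receptor gene NOTCH2 (5.57 and 5.54) and the target genes HEY1 (12.6 and 10.9) and HEY2 (9.51 and 7.52). PSENEN also had another region with an ESC peak at its ends. Of 37 FGF genes, 9 (24.3%) had one and 8 (21.6%) a shared one. They included the feedback inhibitor genes DUSP6 (13.2 and 14.7), SPRY2 (11.2 and 10.5) and DUSP4 (10.6 and 6.70), and SOS2 (11.6 and 9.89), an exchange factor for RAS. DUSP6 likewise had another region with an ESC peak at its ends. Of 21 Hedgehog genes 4 had one (PRKACA, SMO, GLI3 and DISP1), and 4 had a shared region. The NSC-only share of the Hedgehog list thus lay near the 17.1% of all genes.

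The BAF complex itself had 11 of 31 subunit genes (35.5%) with an NSC-only region and 7 (22.6%) with a shared one. The core subunit gene SMARCB1 had 16.0 in NSC1 and 7.15 in NSC2, and PBRM1, of the PBAF form, had 9.25 and 8.25. The ATPase genes SMARCA2 (8.16 and 6.38) and SMARCA4 (5.99 and 5.79) both had one. DPF2, the gene of BAF45D, had 7.14 and 6.61, and its neuronal relative DPF3 had 5.67 and 8.29. Without ESC2 the count was 14, and at −log10 q of at least 5 in every list it was 8. With every list cut to the length of the shortest it was 1.

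Housekeeping lists held many NSC-only and many shared regions. DNA repair had 27 of 71 genes (38.0%) with an NSC-only region and 24 (33.8%) with a shared one, led after PARG by FANCC (28.1 and 19.7), NBN (19.7 and 13.5) and the mismatch repair gene MSH3 (13.8 and 11.5). Cholesterol synthesis had 10 and 12 of 27, with ACAT2 (19.5 and 13.7) and INSIG1 (15.9 and 15.6). Cytosolic ribosomal proteins had 31 and 37 of 81, splicing factors 16 and 29 of 61, and genes of cilia 13 and 25 of 60. Without ESC2 these 3 counts of NSC-only genes were 56, 35 and 29, and that of DNA repair was 41. Without ESC2 the neural progenitor count was 19 and the HOX count 9, close to the 18 and 9 with all libraries. A −log10 q of at least 5 in every list left 11 neural progenitor and 3 HOX genes, against 26 ribosomal protein, 17 splicing, 12 cilia and 14 DNA repair genes. With that limit in the NSC lists only, the neural progenitor and HOX counts were again 11 and 3. Ribosomal protein, splicing, cilia and DNA repair counts were then 17, 8, 7 and 13. With lists of equal length the neural progenitor and HOX counts were 6 and 2. Those of ribosomal protein, splicing, cilia and DNA repair genes were 7, 5, 3 and 4.

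The motor proteins of the kinesin family had 10 NSC-only and 5 shared genes of 42, with KIF1B (14.7 and 17.8) and KIF21A (14.0 and 13.9), which move cargo along axons, at the top. AP-1 and TEAD factors had 8 and 5 of 25, led by FOSL2 (23.5 and 15.2), JUND (16.9 and 16.6) and FOS (19.4 and 11.5). Neural crest genes had 5 and 1 of 16, among them PAX3 (12.04 and 9.82), SNAI2 (11.3 and 7.83) and SOX8 (10.95 and 5.67).

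Some lists had few or no NSC-only regions, or a share of genes near the 17.1% of all genes. Replication-dependent histones had 8 of 69 (11.6%) in 5 regions, against 30 (43.5%) with a shared region, and none of the 8 kept one when ESC peaks within 1 kb were barred. RAB GTPases had 10 of 63 (15.9%), near that background, and 21 shared (33.3%). Olfactory receptors had 5 of 392 (1.28%), and keratins, blood genes and mesoderm and endoderm genes had none of 149, 20 and 26. The clustered protocadherins, 23 of 53, rested on 2 regions, and 1 gene was left when ESC peaks within 1 kb were barred and likewise with 500 bp windows. Of the 53 genes, 23 had an ESC2 peak at an end. Neuronal genes had 4 of 26 (15.4%), led by the neurofilament gene NEFM (16.8 and 14.1), and glial genes 2 of 16 (12.5%). Pluripotency genes had 2 of 31 (6.45%), fibroblast genes 1 of 16 (6.25%) and genes of the retinoic acid pathway 2 of 23 (8.70%).

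The other lists lay between these. Aminoacyl-tRNA synthetases had 12 of 38 genes with an NSC-only region and 18 with a shared one, translation initiation factors 15 and 22 of 55, and cell cycle and replication genes 25 and 29 of 89. General transcription factors with RNA polymerase subunits had 19 and 29 of 80, Mediator subunits 8 and 9 of 30, and proteasome subunits 13 and 16 of 48. Respiratory chain subunits had 23 and 31 of 96, mitochondrial ribosomal proteins 17 and 23 of 77, and mitochondrial carriers and import 20 and 21 of 73. In each of these lists the NSC-only share was above 17.1% and the shared count was the higher one.

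Apoptosis genes had 9 with an NSC-only region and 13 with a shared one of 36, and autophagy genes 10 of each of 42. Chromatin remodellers other than BAF had 7 (20%) and 13 (37.1%) of 35, and Polycomb and histone methylation enzymes 11 (19.6%) and 15 (26.8%) of 56. Tubulins had 5 (17.2%) and 6 (20.7%) of 29, and solute carriers 59 (15.0%) and 45 (11.4%) of 394. From remodellers to solute carriers the NSC-only shares thus lay near the 17.1% of all genes. The plot of gene lists sets all 45 lists side by side.

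**Figure D4:**
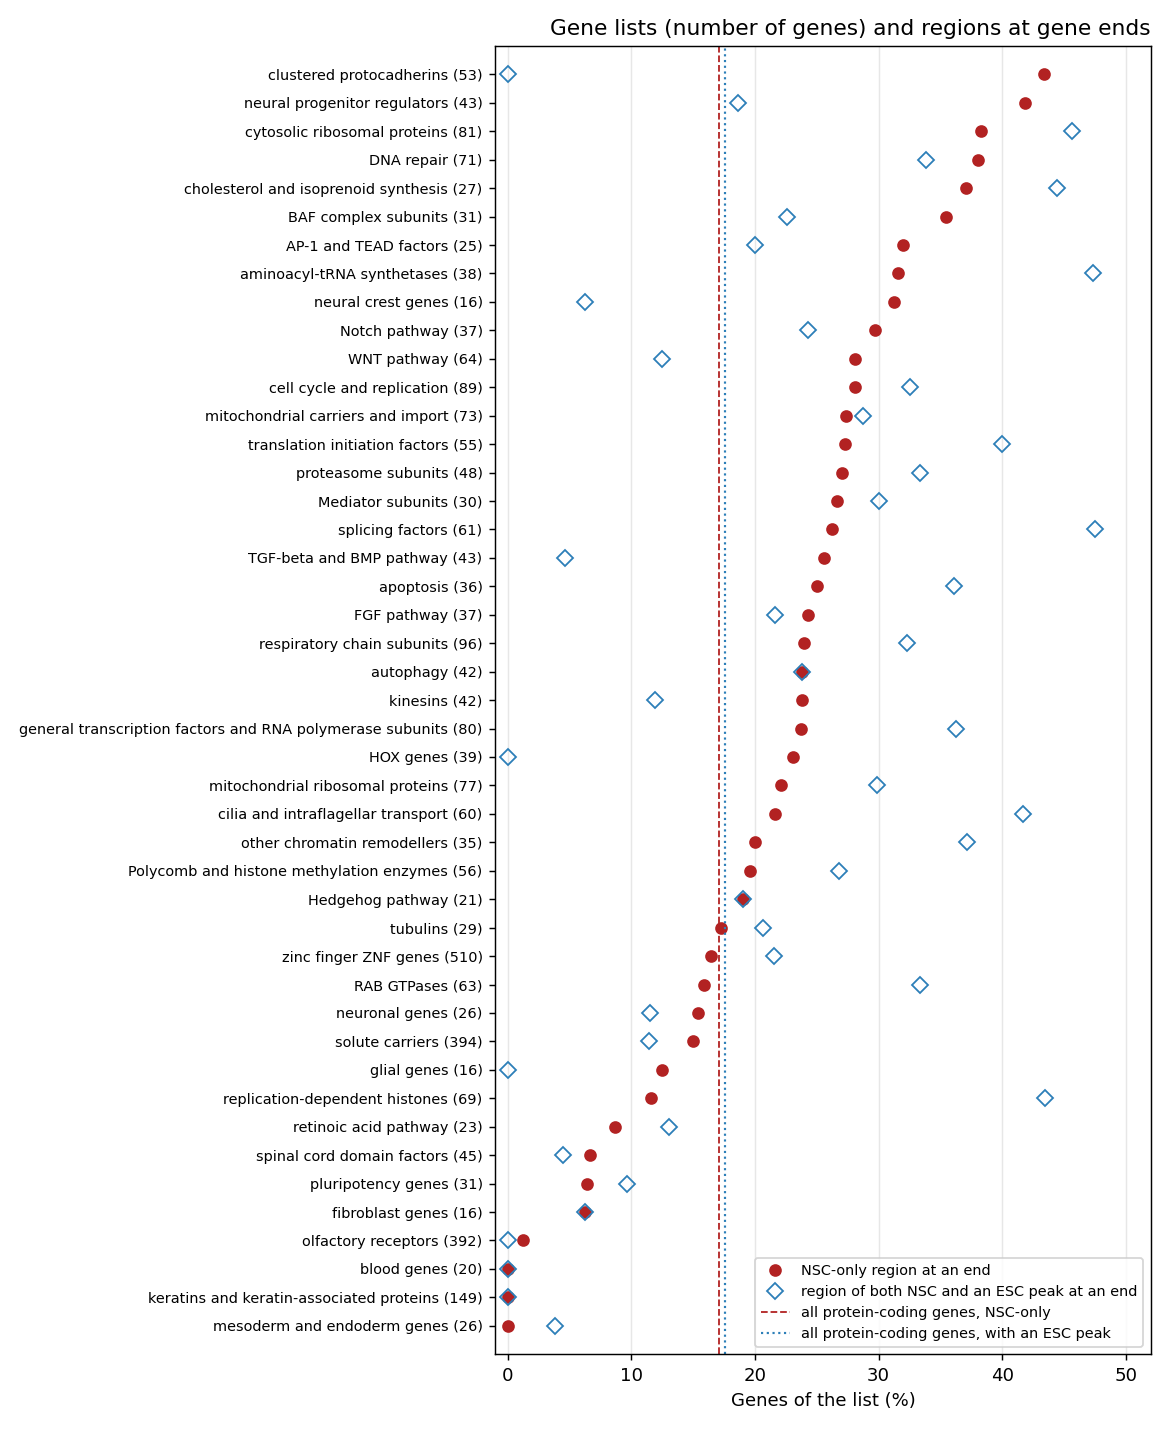
Share of the genes of each list (%, x axis) with an NSC-only region at an end (filled circles) and with a region of both NSC libraries and an ESC peak (open diamonds), with the number of genes in brackets; lines mark all protein-coding genes, 17.1% and 17.6%. Clustered protocadherin, neural crest, neural progenitor, HOX, TGF-beta and BMP, and WNT genes have the circle far to the right of the diamond, whereas histones, splicing factors and cilia have the reverse. The 23 protocadherin genes rest on 2 regions and the 9 HOX genes on 6.

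Across chromosomes the NSC-only share of gene-end regions called in NSC1 and NSC2 lay between 39.3% and 60.9%. It was lowest on chromosome 19 (34.7 to 44.1), whose interval did not reach the 51.2% of all chromosomes, and highest on chromosome 18 (50.4 to 70.5), whose interval held that value. On chromosomes 8 (60%, 53.0 to 66.6) and 13 (60.7%, 51.5 to 69.3) the interval lay above 51.2%. Chromosome 19 carries clusters of zinc finger genes. Of its 246 ZNF genes 29 (11.8%) had an NSC-only region and 61 (24.8%) a shared one, whereas of 264 ZNF genes elsewhere 55 (20.8%) and 49 (18.6%) did. Other genes of chromosome 19 also had more shared regions, 252 of 1205 (20.9%), than NSC-only ones, 167 (13.9%).

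**Figure D5:**
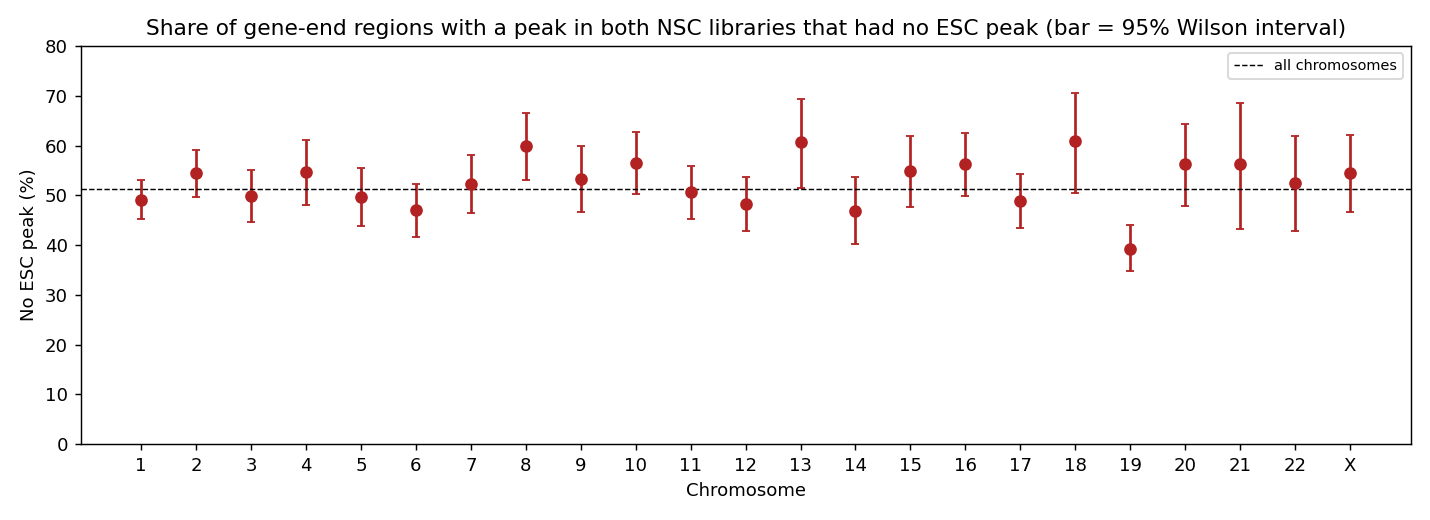
Share of gene-end regions called in NSC1 and NSC2 that had no ESC peak (%, y axis) by chromosome, with 95% Wilson intervals that cover counting error only; the dashed line is the 51.2% of all chromosomes. Chromosome 19 has the lowest share, 39.3%.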

How the data were processed

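CUT&Tag libraries ESC1, ESC2, NSC1 and NSC2 were grouped by their titles. The submitters' processing notes name Trimmomatic, FastQC, BWA 0.7.12 and the build hg38. Per the file headers, MACS2 2.1.0.20150420 called the peaks library by library, without control, at a q cutoff of 0.05, with reads shifted by -100 bp and extended to 200 bp. The deposited pileup is a signal value per peak, the deposited strengths are −log10 p and −log10 q values, and the fold enrichment is the authors' ratio to the local background of 10000 bp; all belong to 1 library and were used only to describe or rank peaks within its list. An absent peak means that the threshold was not passed. A control antibody was not analysed here.

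Several summits of 1 interval were treated as 1 peak, at its highest −log10 q. Merging, gene windows and motif search (0 mismatches, 14 motifs) used Python 3.11.15, numpy 2.4.6 and pandas 2.3.3. Counts of simulated regions of known class and of simulated CCAAT boxes were recovered. For the real lists, the number of merged regions equalled that from bedtools 2.31.1. Strand and promoter sequence came from RefSeq for 15811 of 19970 protein-coding genes (79.2%), none on chromosome 8. The regions and the 45 gene lists were chosen with earlier results of these data known. Named were the 12 strongest regions, the 5 widest, the 1 touching most genes and the regions next to the 1 kb limit. Leading genes were named for some of the lists and not for others. A few other list members and markers were named after their values were seen. Alternatives left out each library, changed thresholds, list lengths, windows and overlaps.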

Additional observations from a re-analysis of the deposited data

How the results depend on the processing

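The 2972 regions and 3424 genes became 2981 to 5155 regions and 3433 to 5654 genes when 1 library was left out: 4892 regions and 5654 genes without ESC2, 5155 and 5366 without NSC2. They became 1890 and 2266 at −log10 q of at least 5 in every list, 1383 and 1656 with that limit in the NSC lists only, and 370 and 462 with every list cut to the length of the shortest. Of the 3424 genes, 1671 (48.8%) remained at the first of these limits and 273 (7.97%) with equal lengths. The share of 51.2% without an ESC peak was 51.4% to 84.4% with 1 library left out, 84.4% being without ESC2, and 38.0% with the limit in NSC lists only, 28.7% with equal lengths, 52.6% with 2500 bp windows and 47.1% with no ESC peak within 1 kb. The share at starts was 94.6% to 95.9% with a library left out, 95.8% with 500 bp and 91.9% with 2500 bp windows. The CpG ratio was 0.882 to 0.901 with a library left out and 0.915 with equal lengths. The CCAAT difference, NSC-only minus shared, was -14.8 percentage points, -16.1 to -14.7 with a library left out, -11.7 with the limit in NSC lists only and -11.2 with equal lengths; the GC difference was 6 points, 5 to 6 with a library left out and 6.67 with joining at an overlap of 50% of the shorter peak. None of these differences changed sign. Of the 45 list counts, 26 moved by over 1.5 times without ESC2, 21 without NSC2, 8 without NSC1 and 0 without ESC1, 42 with equal lengths, 35 with the limit in NSC lists only and 16 with it in every list. The causes were not tested, except that a rule with 1 library fewer asks less of a region. No paired analysis was possible because the results come from no test. Peak lists hold no counts for places without a peak, so no lower limit of ESC signal was derived.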

Other observations

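Some NSC-only gene-end regions also overlapped starts and genes of RNAs that do not code for protein. Of 11383 lncRNA starts in RefSeq, 325 (2.86%) lay in such a region, against 436 (3.83%) in a shared region. Among regions that held a coding start, 216 of 1761 (12.3%) also held a lncRNA start on the opposite strand, against 351 of 2153 (16.3%) of the shared regions.

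Hairpins of microRNAs were overlapped at 11 of the 1558 in the table, against 17 for shared regions. Those at the promoters of well-known host or neighbour genes are printed as mature RefSeq sequences (GRCh38.p14) with the seed, bases 2 to 8, in capitals, to show that their seeds differ: miR-484 at NDE1 and MARF1 (chr16:15643301-15643322, plus strand), miR-611 at FEN1 and TMEM258 (chr11:61792500-61792522, minus strand) and miR-3188 at JUND (chr19:18282129-18282151, plus strand). They were chosen after their values were seen. The region at JUND (chr19:18281528-18282119) overlaps the hairpin but ends before the mature bases of miR-3188. At miR-484 the region ends inside the mature bases, at 15643319.
hsa-miR-484: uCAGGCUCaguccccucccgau
hsa-miR-611: gCGAGGACcccucggggucugac
hsa-miR-3188: aGAGGCUUugugcggauacgggg
The −log10 q of the region was 9.68 in NSC1 and 7.73 in NSC2 at MIR484, 10.4 and 5.02 at MIR611, and 16.9 and 16.6 at MIR3188. Each of these regions also lies at a coding gene's end, so the peak cannot be assigned to the microRNA.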
